A study of Drosophila melanogaster with 12 samples.

Results

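Polycomb binding was examined over 3 intervals of the Drosophila melanogaster genome that were given for 6 genes of the T-box family. The intervals, in dm3 coordinates, were chromosome 3L from 8970001 to 9070000 for Doc1, Doc2 and Doc3 (FBgn0028789, FBgn0035956 and FBgn0035954), chromosome 2L from 5330001 to 5530000 for H15 and mid (FBgn0016660 and FBgn0261963), and chromosome X from 4230001 to 4360000 for bi (FBgn0000179). All GATC fragments that start in an interval were taken, 428 at Doc, 583 at H15-mid and 354 at bi, which together are 1365 of the 356504 fragments of the genome. The rule used positions only, though the loci were proposed with earlier results of these data known. The genes were tied to the intervals as given: the gene tables at hand describe a later assembly (release 6), so that no exon, intron or start site was placed inside an interval. In the gene order of that assembly, Doc3, Doc2 and Doc1 follow each other on 3L with 1 other protein-coding gene, CG5194, between them, H15 lies directly before mid, and bi lies between CG3626 and CG3556.

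T-box proteins are transcription factors that bind DNA through the conserved domain that names the family. The Dorsocross genes Doc1, Doc2 and Doc3 act in overlapping fashion in the amnioserosa and in the precursors of the heart. The midline gene mid and its neighbour H15 are related to vertebrate Tbx20 and act in heart and epidermal patterning, and mid also acts in the nervous system. The gene bi, better known as optomotor-blind, responds to Dpp signalling in the wing and is required for the optic lobes of the brain. Polycomb, a protein that binds methylated histone H3 through its chromodomain, is part of the Polycomb repressive complexes. They hold many such developmental regulators silent in cells that do not use them, often over broad domains.

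The scores came from DamID, in which a DNA adenine methyltransferase (Dam) fused to Polycomb marks GATC sites near its binding places and Dam alone gives the background. There were 12 libraries in 6 groups, with 2 biological replicates for each of Dam-Polycomb and Dam alone in 3 sources: the central brain, the fat body (the fly's fat storage and metabolic organ) and the repo+ glial cells of the central brain. All larvae were at the wandering stage of the last instar. Brain and fat body came from males on a y,w background. Their transgene, at the landing site ZH51C, expressed Dam from the promoter labelled FL.hsp70P, with an intein at L127C of Dam that depends on 4-hydroxytamoxifen; the Polycomb form added PC to it. Brain samples (20 larvae each) were uninduced, and fat body samples (10 larvae each) came from larvae raised on food with 25 µM of the drug. Glial samples (brains of 20 larvae each, males and females pooled) carried the DamFLP system on a y,w/w background. There a recombinase transgene, repoFlp5, driven by the glial gene repo, switches on Dam or Dam-PC, which sits at ZH51C behind the STOP#1 cassette and the promoter min.hsp70P. The glia are cells of the same dissected organ as the brain samples. Brain and fat body therefore differ in tissue and induction at once, and each differs from glia in system and sex as well; these cannot be told apart. The table holds binding scores and no expression, so the tissue labels could not be checked on marker genes.

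Each value is a log2 ratio of Dam-Polycomb to Dam only for 1 fragment, the authors' mean over replicates, with 1 column per tissue. No spread between animals can be given, the depth is unknown and no test was possible. Every SD below is taken over fragments along the chromosome. The median over all scored fragments was -1.24 for brain, 0.09 for fat body and -0.60 for glia. Values below are relative to these medians ("centred") unless called deposited. On this scale the median difference over all bins was -0.59 for brain minus fat body and -0.20 for brain minus glia. For fat body minus glia it was 0.39. Differences between bins at the T-box loci are to be read against these medians. Differences over fragments scored in both profiles are another measure, for which no value over the genome was computed. A 10-kb bin needed at least 5 scored fragments, and its mean is called enriched when it lies over 2 (4-fold) above its profile's median. The scatter of a bin mean, from its odd against its even fragments, was 0.29 in brain, 0.31 in the fat body and 0.26 in glia. Within the 3 intervals it was 0.20 to 0.41. Bins with only 5 scored fragments were not part of this estimate. In bulk material, fewer cells with Polycomb at a locus and less Polycomb per cell cannot be told apart.

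All 3 T-box intervals carried Polycomb in all 3 profiles, with a different pattern at each. At Doc the profiles had nearly the same extent, and inside it their centred bin means lay at most 1.75 apart. At H15-mid a broad brain domain was narrower in glia and narrower again in the fat body. At bi the extents were alike and the fat body reached its highest level. Over the genome 13.9% of brain bins, 9.59% of fat body bins and 8.75% of glial bins were enriched. At Doc 5 of 9 brain bins, 5 of 10 fat body bins and 5 of 10 glial bins were. At H15-mid the numbers were 18 of 20 in brain, 6 of 17 in the fat body and 15 of 20 in glia, and at bi 10, 11 and 9 of 13. Each of these shares lay well above the share over all bins.

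**Figure D1:**
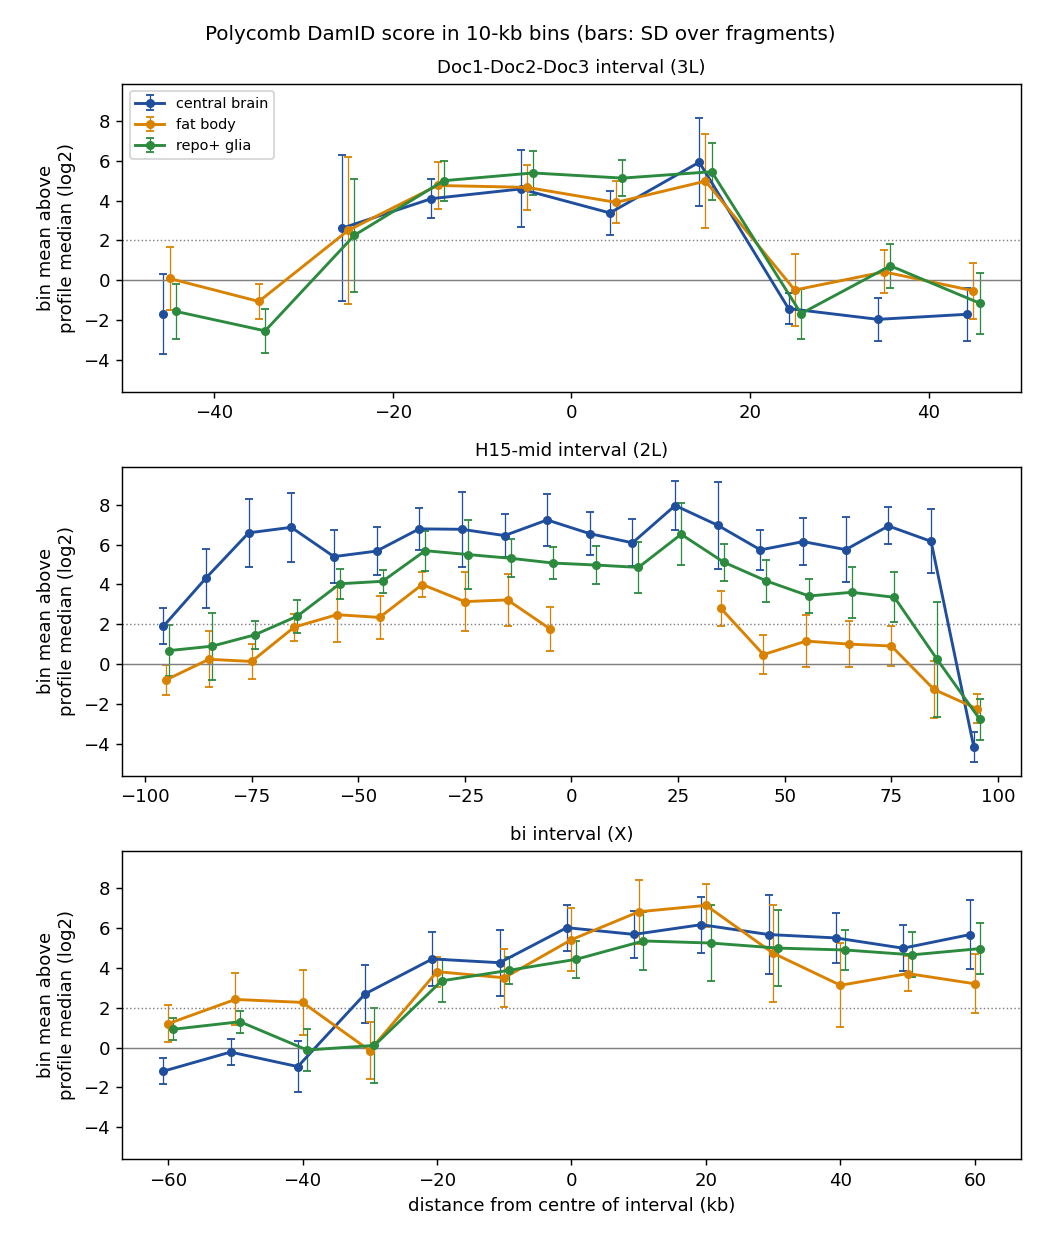
Mean Polycomb score of each 10-kb bin above the median of its profile (y, log2) against distance from the centre of the interval (x, kb) for central brain, fat body and repo+ glia. Bars are the SD over fragments, the dotted line is the threshold of 2, and bins with fewer than 5 scored fragments have no point. The 3 lines rise and fall together at Doc and cross at bi, where fat body peaks at 7.15. At H15-mid they separate. There brain is highest and fat body lowest in every bin with a fat body value but the last, from 5520001.

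Over the whole Doc interval the deposited mean was 1.08 in brain (SD 3.47, 149 fragments), 1.75 in the fat body (SD 2.93, 201 fragments) and 1.64 in glia (SD 3.41, 276 fragments). The centred means were 2.31, 1.66 and 2.24, each over its own set of scored fragments. Over fragments scored in all 3 profiles they were 1.80 in brain, 2.76 in the fat body and 2.58 in glia. Brain was thus highest on the first measure and lowest on the second. A block of high fragments lay between low flanks and spanned the 5 bins from 8990001 to 9040000 in every profile. Their centred means along the chromosome were 2.61, 4.10, 4.59, 3.38 and 5.93 in brain. In fat body they were 2.51, 4.76, 4.67, 3.91 and 4.98, and in glia 2.26, 5.00, 5.39, 5.13 and 5.45. The bin from 9030001 was thus the highest of the interval in each profile, and 0.68% of all fat body bins, 0.61% of all glial bins and 3.74% of all brain bins lay higher than it. Outside the block no bin was enriched. The flanking bins ranged from -1.97 to -1.42 in brain, from -1.07 to 0.42 in the fat body and from -2.54 to 0.72 in glia.

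The ends of the Doc domain fell close together. An enriched stretch was defined as at least 5 consecutive scored fragments whose running mean over 11 fragments exceeded 2, trimmed to fragments that are themselves over 2. At Doc it ran from 8995097 to 9039651 in brain (44.6 kb, centred mean 4.60, SD 1.73, 95 fragments). In fat body it ran from 8994229 to 9038623 (44.4 kb, mean 4.86, SD 1.25, 79 fragments), and in glia from 8994487 to 9039651 (45.2 kb, mean 5.18, SD 1.13, 146 fragments). The starts lay at most 0.868 kb apart and the ends at most 1.03 kb, and brain and glia ended at the same GATC site. The last 5 fragments inside had a mean of 5.51 in brain, and the next 5 outside had -1.17. In glia this step went from 5.46 to -1.38 and in the fat body from 5.28 to 0.20. At the start the step in the fat body went from -0.99 outside to 4.75 inside. It was less so in brain, from 0.38 to 4.53, and in glia, from 0.79 to 3.31.

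Single fragments at Doc reached high values in all tissues. The 645-bp fragment from 9033498 to 9034142 had deposited scores of 7.38 (brain), 7.72 (fat body) and 6.10 (glia). The highest brain score, 8.71, was on the nearby 146-bp fragment from 9035134 to 9035279, which had 5.12 in glia and no fat body score. Another fragment, from 8997117 to 8997178, tied for the highest fat body score, 7.72, with 3.43 in brain and 4.70 in glia. The glial leaders were 7.12 from 8999184 to 8999259, scored in glia only, and 7.05 from 9009010 to 9009157, with 1.16 in brain. Over the 110 fragments scored in both, brain minus fat body was -0.96 at Doc (SD 1.73), with brain higher on 32 fragments. The share of such fragments over the genome was not computed, so this count has nothing to be read against. Brain minus glia was -0.71 (SD 1.81, 145 fragments). With the profiles brought to a common distribution (quantile normalized), these differences were -1.62 and -1.72. Over the whole interval, flanks included, fat body was 0.50 higher than glia (SD 1.43, 185 fragments). By bins, the median difference at Doc was -0.66 for brain minus fat body, -0.56 for brain minus glia and 0.0015 for fat body minus glia. Over all bins these medians were -0.59, -0.20 and 0.39. Inside the enriched block the bins of brain and fat body lay within 0.95 of each other. Brain and glia differed there by up to 1.75, in the bin from 9020001 (3.38 against 5.13). Fat body minus glia was 0.24 in the first bin of the block and -0.24, -0.72, -1.22 and -0.47 in the others. In the flanking bins fat body minus glia ranged from -0.30 to 1.65. The largest difference was in a low flank, the bin from 9050001, at -1.97 in brain, 0.42 in the fat body and 0.72 in glia. It was the 1 bin of 9 in which brain was over 2 below fat body, against 16.9% of all bins, and the 1 of 9 in which it was over 2 below glia, against 8.35%. These counts rested on the scale: as deposited they were 4 and 2 of 9, and quantile normalized 1 and 4 of 9. No share over all bins was computed on those scales. As deposited, the median over all bins was itself -1.92 for brain minus fat body and -0.84 for brain minus glia. Across the bins of the interval Pearson r was 0.976 for brain against fat body (9 bins), 0.945 for brain against glia (9 bins) and 0.985 for fat body against glia (10 bins). These describe bins of 1 locus, which are not replicates.

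**Figure D2:**
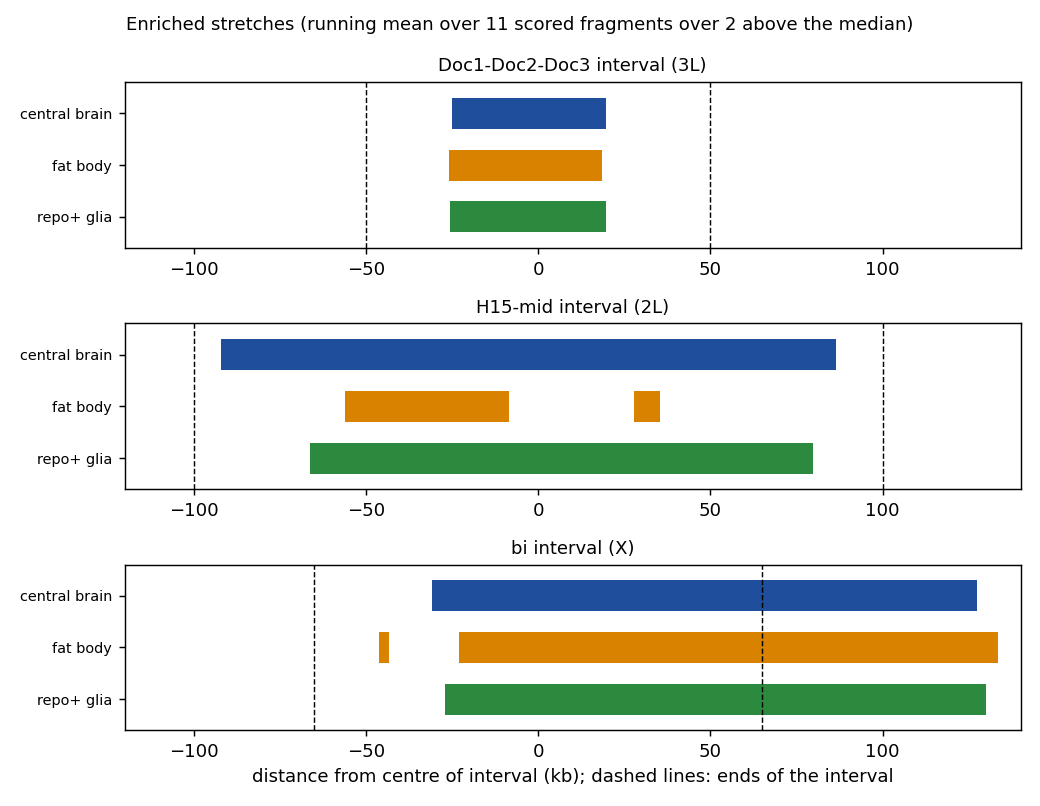
Enriched stretches of each profile (bars) against distance from the centre of the interval (x, kb), with dashed lines at the ends of the interval. The Doc stretches are 44.4 to 45.2 kb long in the 3 profiles, the H15-mid stretches are nested with brain widest, and the bi stretches run 62.4 to 68.4 kb past the end of the interval.

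At H15-mid, on the centred scale, brain was highest over the interval, glia intermediate and fat body lowest. The deposited mean was 4.61 in brain (SD 2.40, 274 fragments), 0.99 in the fat body (SD 2.05, 196 fragments) and 2.82 in glia (SD 2.43, 376 fragments), which is 5.85, 0.90 and 3.41 above the medians. Of the scored fragments, 93.8% lay over 2 above the median in brain, 30.6% in the fat body and 77.1% in glia, against 20.7%, 15.9% and 14.0% over the genome. On the 163 fragments scored in both, brain was 4.03 above fat body (SD 2.10) and higher on 157 of them. Brain was 2.21 above glia (SD 1.80) and higher on 241 of 264 fragments. Fat body minus glia was -1.51 (SD 1.53), with fat body higher on 34 of 191. For these counts of fragments no share over the genome was computed. By bins, brain was over 2 above fat body in 16 of 17, against 11.3% of all bins. It was over 2 above glia in 8 of 20, against 10% of all bins, and glia over 2 above fat body in 8 of 17, against 3.52%. The last count was 2 as deposited and 3 over fragments scored in all 3 profiles, without a share over all bins for these settings. No centred bin passed 2 in the opposite direction for any of these pairs. The gap between brain and glia depended on the scale: with the profiles brought to a common distribution (quantile normalized), brain was 0.30 above glia over fragments, and the median bin difference was -0.39.

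The brain domain at H15-mid filled nearly the whole interval. Its stretch ran from 5337887 to 5516388 (179 kb, centred mean 6.31, SD 1.64, 253 fragments) and ranked 9 in length among 401 brain stretches. The glial stretch lay within it, from 5363921 to 5509851 (146 kb, mean 4.48, SD 1.39, 282 fragments), and ranked 7 among 500. In the fat body 2 separate stretches lay within the glial one, from 5374016 to 5421489 (47.5 kb, mean 3.11, SD 1.25, 45 fragments) and from 5457810 to 5465282 (7.47 kb, mean 3.01, SD 0.66, 8 fragments). The fat body stretches together covered 27.5% of the interval, against 89.3% in brain and 73.0% in glia. Their extent rested on the threshold: 114.9 kb of the interval passed with a threshold of 1, and 23.8 kb with a threshold of 3, against 54.9 kb here.

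The left outer part of the brain domain was low in the other tissues. The parts between stretch ends below were cut by these same scores. A high mean in 1 profile beside a lower mean in another is therefore partly given by that choice. In the 26.0 kb of the brain stretch before the glial one, the centred mean was 5.39 in brain (SD 2.40, 32 fragments), 0.89 in glia (SD 1.49, 40 fragments) and 0.21 in the fat body (SD 1.41, 25 fragments). The bin from 5350001 stood at 6.59 in brain, 1.46 in glia and 0.12 in the fat body, the last over 5 fragments. Its 277-bp fragment from 5358644 to 5358920 had deposited scores of 8.68 in brain, 1.03 in glia and -0.46 in the fat body. At the other end, the bin from 5510001 had 6.16 in brain (5 fragments), 0.24 in glia (7 fragments) and -1.29 in the fat body (6 fragments), the largest bin difference from brain for both tissues. The brain stretch ends within this bin, and low glial fragments past its end enter the glial mean. In the 6.54 kb of the brain stretch after the glial one, the mean was 6.59 in brain (SD 0.80, 5 fragments), 2.44 in glia (SD 1.79, 4 fragments) and 0.21 in the fat body (SD 1.26, 3 fragments), so that glia was not low there. In the 44.6 kb of the glial stretch after the last fat body stretch, glia stood at 3.79 (SD 1.16, 86 fragments) and brain at 6.22 (SD 1.52, 61 fragments), while fat body stood at 0.93 (SD 1.10, 39 fragments).

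A part of H15-mid left of the centre of the interval, from 5390001 to 5420000, was high in all 3 profiles. The 3 highest fat body bins, from 5390001, 5400001 and 5410001, had centred means of 3.99, 3.13 and 3.22. The same bins had 6.79, 6.77 and 6.45 in brain and 5.69, 5.50 and 5.31 in glia. The fat body's leading fragment, from 5413380 to 5414001 (622 bp), had deposited scores of 5.33 in the fat body, 5.49 in brain and 4.69 in glia, so that it differed little between tissues as deposited. Brain and glia peaked elsewhere, in the bin from 5450001. Glia had 6.52 there (SD 1.56, 12 fragments), which was the highest of all 11872 glial bins, and brain had 7.96 (SD 1.21, 11 fragments), which ranked 29 among 10511. With the bin grid shifted by 5 kb the leading glial bin of the locus ranked 6. Adjacent glial fragments led the peak, with deposited scores of 8.35 from 5456474 to 5457213 and 7.69 from 5457233 to 5457694. In brain these had 7.54 and 5.96, and neither had a fat body score. Only 3 fragments of that bin were scored in the fat body, too few for a value. Between the fat body stretches, 17 of 103 fragments had a fat body score, with a mean of 1.62 (SD 1.19). In brain 41 had one (mean 6.69) and in glia 56 (mean 5.16). This part was cut at the fat body stretch ends, so that a lower fat body mean is partly given by the choice.

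The right end of the H15-mid domain was a sharp step in brain. The last 5 fragments of the brain stretch had a mean of 6.59 and the next 5 had -2.89. The bin that starts at 5520001 held the lowest means of the interval, -4.15 in brain, -2.24 in the fat body and -2.78 in glia. At the left end the brain profile sloped instead, with 1.99 over the first 5 fragments inside and 2.00 over the 5 outside, and the bin from 5330001 held 1.89. Beyond the low bin, the 8 bins from 5550001 to 5630000, looked at after the values were seen, were between 2.97 and 4.95 in brain, between -0.85 and 0.66 in the fat body and between -1.54 and 0.08 in glia. Across the bins of the interval Pearson r was 0.667 for brain against fat body (17 bins), 0.783 for brain against glia (20 bins) and 0.915 for fat body against glia (17 bins).

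**Figure D3:**
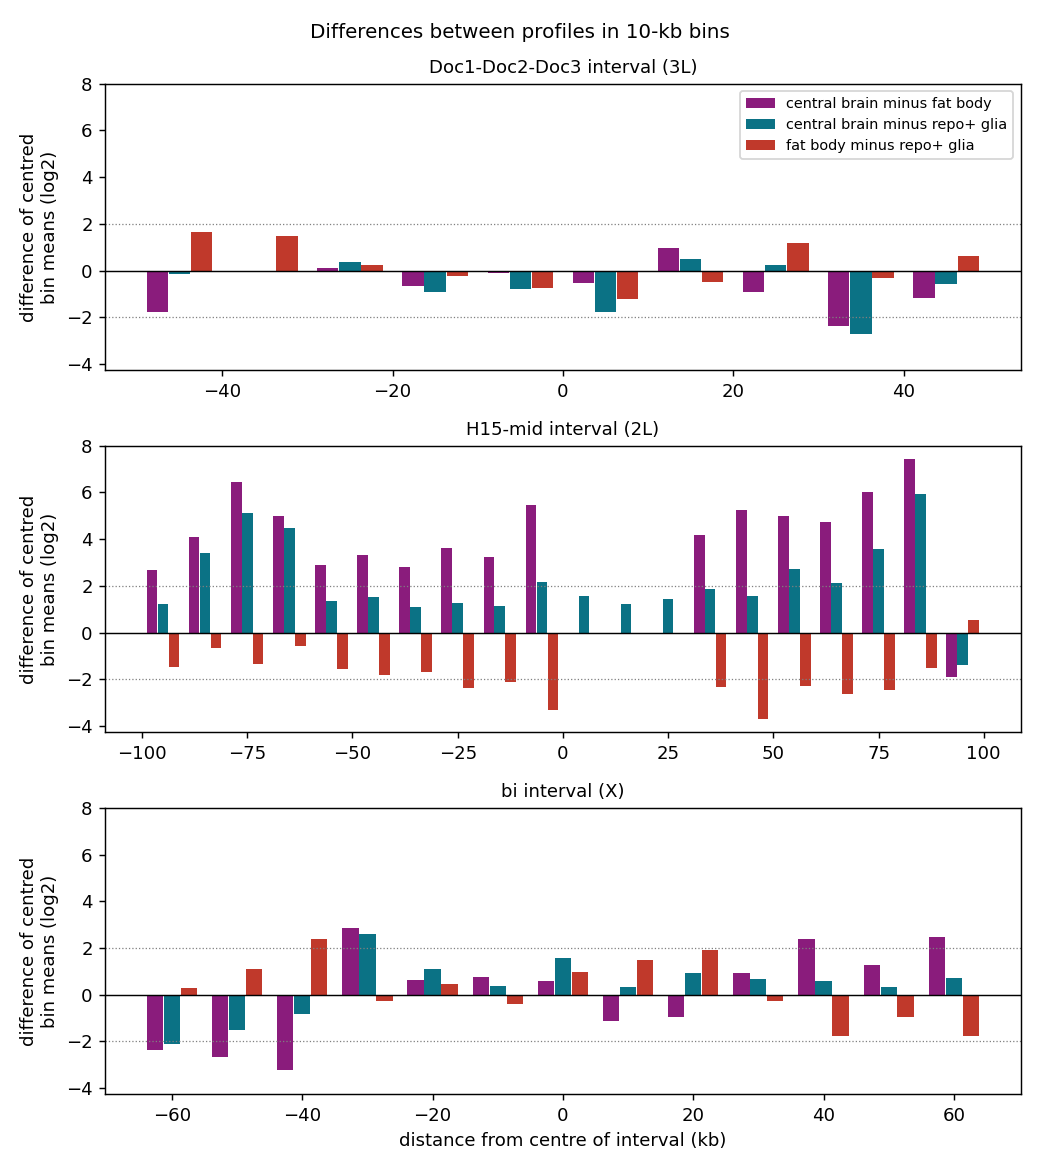
Difference of centred bin means between profiles (y, log2) against distance from the centre of the interval (x, kb), with 1 bar per pair of profiles and bin and dotted lines at 2 apart. At H15-mid the bars of brain minus fat body exceed 2 in 16 of 17 bins and reach 7.45, while at Doc they stay between -2.39 and 0.95.

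The bi interval was high in all profiles, and most of all in the fat body at its centre. The deposited mean was 2.98 in brain (SD 2.62, 180 fragments), 3.56 in the fat body (SD 2.45, 115 fragments) and 2.77 in glia (SD 2.27, 224 fragments). The centred means were 4.21, 3.47 and 3.37. Which tissue was highest overall depended on the scale. Over the 108 fragments scored in both, brain minus fat body was 0.43 when centred (SD 2.16), -0.90 as deposited and -0.80 when quantile normalized. Brain minus glia was 0.56 when centred (SD 1.73, 167 fragments), -0.083 as deposited and -0.97 when quantile normalized. Fat body was above glia on each scale, by 0.32 when centred (SD 1.68, 114 fragments), 1.01 as deposited and 0.09 when quantile normalized, although the median bin difference was -0.12 on the last scale.

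The fat body profile at bi peaked in the bins from 4300001 and 4310001. Their centred means were 6.83 (SD 1.62, 7 fragments) and 7.15 (SD 1.06, 6 fragments), the second highest and the highest of all 10892 fat body bins. The same bins had 5.69 and 6.18 in brain and 5.36 and 5.26 in glia. A bin of bi stayed highest in the fat body with a shifted grid, with a minimum of 3 fragments, with the median and with fragments of 200 to 2000 bp. With at least 10 fragments per bin these bins dropped out and the leading bin of bi, from 4290001, ranked 24. The highest single fat body fragments were from 4337022 to 4338178 (1157 bp), with deposited scores of 8.73 (fat body), 6.66 (brain) and 5.56 (glia), and from 4308849 to 4309277 (429 bp), with 8.44, 4.21 and 5.74. They ranked 13 and 21 among all fat body fragments.

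In the right part of bi, brain and glia were flatter than fat body. From 4290001 to 4360000 the 7 brain bins lay between 5.00 and 6.18 and the glial bins between 4.44 and 5.36, whereas the fat body bins ranged from 3.13 to 7.15. In this part brain exceeded fat body by over 2 in the bins from 4330001 (5.51 against 3.13) and 4350001 (5.68 against 3.21). In both, fat body minus glia was -1.77. The brain profile held the highest fragment of the interval, 9.28 as deposited from 4356482 to 4358366 (1885 bp), with 4.58 in glia and no fat body score.

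On its left side the bi interval showed an opposite order of tissues. In the 3 bins from 4230001, 4240001 and 4250001 fat body had 1.20, 2.42 and 2.27, brain -1.18, -0.22 and -0.95, and glia 0.92, 1.30 and -0.12. These values rested on 5 to 9 fat body fragments a bin. A short fat body stretch of 2.92 kb lay there, from 4248786 to 4251702 (mean 3.45, SD 1.03, 5 fragments), where brain had 0.16 and glia 0.69. The next bin, from 4260001, was reversed, with 2.70 in brain, -0.15 in the fat body and 0.11 in glia. Counted over the interval, brain was over 2 above fat body in 3 of 13 bins and over 2 below it in 3, against 11.3% and 16.9% of all bins. As deposited these counts were 0 and 5, and quantile normalized 1 and 4. Brain was over 2 above glia in 1 bin of bi and over 2 below it in 1, against 10% and 8.35% of all bins; as deposited the counts were 0 and 2, and quantile normalized 1 and 0. Fat body was over 2 above glia in 1 bin of bi, from 4250001, and in none at Doc or H15-mid when centred, against 4.38% of all bins. As deposited it was so in 3 of 13 bins at bi, 2 of 10 at Doc and 0 of 17 at H15-mid. No share over all bins was computed on the deposited or quantile normalized scale, so those counts have no genome-wide match. As deposited, the median over all bins was -1.92 for brain minus fat body, -0.84 for brain minus glia and 1.08 for fat body minus glia.

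The long bi stretches began within 7.69 kb of each other and ran past the interval. They extended from 4264255 to 4422374 in brain (158 kb, centred mean 5.28, SD 1.52, 226 fragments), from 4271949 to 4428429 in the fat body (156 kb, mean 4.02, SD 2.16, 133 fragments) and from 4267986 to 4424973 in glia (157 kb, mean 4.15, SD 1.38, 262 fragments). Each profile thus covered at least 95.1% of the others' long stretches. The fat body stretch was the longest of 701 in that tissue, while those of glia and brain ranked 5 among 500 and 12 among 401. The continuity in the fat body depended on the settings. With a running mean over 5 fragments its longest piece was 58.5 kb (rank 16), and with a threshold of 3 it was 56.0 kb (rank 10). The part beyond the interval held centred means of 5.41 in brain (SD 1.41, 79 fragments), 3.37 in the fat body (SD 2.19, 53 fragments) and 3.59 in glia (SD 1.25, 98 fragments). The interval may not hold all of bi, and the place of the gene in it was not analysed here. Across the 13 bins of the interval Pearson r was 0.684 for brain against fat body, 0.905 for brain against glia and 0.799 for fat body against glia.

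**Figure D4:**
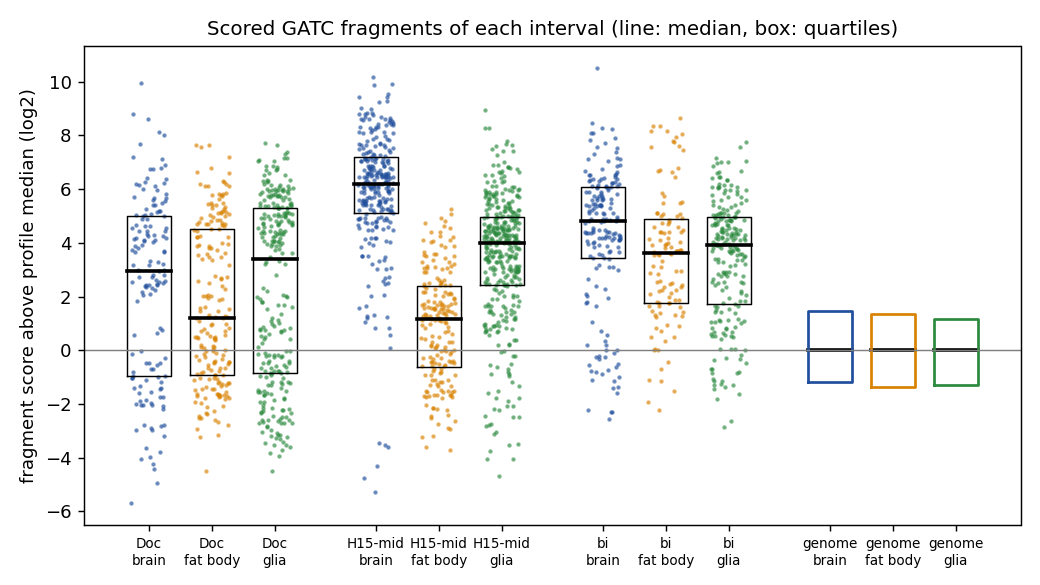
Every scored fragment of the 3 intervals above its profile's median (y, log2), by interval and tissue (x), with the median (line) and quartiles (box), beside the quartiles over the genome. At H15-mid the medians are 6.19 in brain, 1.15 in the fat body and 3.98 in glia, while at bi they are 4.81, 3.63 and 3.91.

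The level of the domains also differed between loci within a profile. In brain the mean of the long stretch was 6.31 at H15-mid, 5.28 at bi and 4.60 at Doc. In glia the means were 5.18 at Doc, 4.48 at H15-mid and 4.15 at bi. In fat body it was 4.86 at Doc, 4.02 at bi and 3.11 at H15-mid. The SD over fragments within a stretch, 1.13 to 2.16 for these, was larger than each step between neighbours in these orders. It describes single fragments and does not measure the uncertainty of a mean. By stretch means Doc, the shortest domain, was the lowest of the 3 in brain and the highest in the other profiles. Over the whole intervals the order differed. The centred means in glia were 2.24 at Doc, 3.41 at H15-mid and 3.37 at bi. In the fat body they were 1.66, 0.90 and 3.47 in the same order.

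Scores were missing unevenly over these loci. In the H15-mid interval 47.0% of fragments were scored in brain, 33.6% in the fat body and 64.5% in glia, and at bi 50.8%, 32.5% and 63.3%, against 34.4%, 42.8% and 55.0% over the genome. In bins of H15-mid enriched in any profile, 29.9% of the 491 fragments had a fat body score, whereas in its other bins 53.3% of 92 had one. At Doc the same shares were 36.5% of 249 and 61.5% of 179. Brain showed the opposite, with 50.9% and 26.1% at H15-mid and 41.4% and 25.7% at Doc. Over all such bins of the genome the fat body shares were 43.5% and 42.6%, and those of brain 51.9% and 31.0%. The part of missing scores in the levels and edges above was not tested, beyond the values from fragments scored in all 3 profiles.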

How the data were processed

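The data were 3 columns of DamID-seq scores, 1 per tissue, over GATC fragments. The deposited values are log2 ratios of Dam-Polycomb to Dam only, which the authors normalized and averaged across replicates, per the file headers and the design text, with 3 technical replicates of each brain Dam-only sample. The submitters' processing notes name cutadapt, Bowtie2, HTSeq and the build dm3, without versions. Base 2 was checked by counting fragments at half-log2 steps from each profile's commonest score. They numbered 1265 (brain), 2725 (fat body) and 3029 (glia), and steps of other bases held 288 at most. Why a fragment has no score was not stated in any source used here.

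Centring, bins and stretches were computed over the whole table, with stretches broken at gaps over 5 kb between scored fragments, in Python 3.11.15 with numpy 2.4.6 and pandas 2.3.3. The code for bins and stretches was run on simulated scores, with flat independent noise and bins or stretches raised well above the threshold. That check did not cover levels near the threshold or sloping edges. With 1 mean column per tissue no test was run. The intervals were given, and the members and settings were chosen with earlier results of these data known. The bins planned for naming were the 3 highest and 2 lowest per interval and profile and the largest difference per pair and direction. Some of these were left out, and other bins were named as well. Named fragments were chosen from the 2 highest per interval and profile, and not all of those were named. Every stretch that overlaps an interval was listed. The alternatives are listed in the closing section. No sequence was printed, and T-box promoters, proteins and motifs were not analysed here.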

Additional observations from a re-analysis of the deposited data

How the results depend on the processing

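No paired analysis was possible because each tissue has 1 column of replicate means. Leaving out a replicate was not run for the same reason. A mean counted as moved when it shifted by more than its standard error over 10-kb bins, and a count or length when it changed by over 1.5 times. Centring removed fragment medians that differ by -1.33 (brain minus fat body), -0.64 (brain minus glia) and 0.69 (fat body minus glia).

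Of 90 recounts of enriched bins, 89 stayed within 1.5 times, and the exception was fat body at H15-mid with 3 bins at a threshold of 3. The fat body stretches at H15-mid covered 114.9 kb of the interval at a threshold of 1 and 23.8 kb at 3. The other 43 recomputed lengths, each summed over the pieces inside an interval, stayed within 1.5 times. A single stretch could still break up. In the fat body at bi the longest piece fell from 156 kb to 58.5 kb with a running mean over 5 fragments. With a threshold of 3 it was 56.0 kb. As deposited, the locus means moved in brain to 1.08 at Doc, 4.61 at H15-mid and 2.98 at bi, and in glia to 2.82 at H15-mid and 2.77 at bi. Quantile normalization moved brain to 4.49 at H15-mid and 3.18 at bi. With fragments scored in all 3 profiles fat body moved to 2.76 at Doc and 1.38 at H15-mid, and with the median glia moved to 3.40 at Doc and 3.98 at H15-mid.

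Differences moved as deposited at Doc to -2.29 (brain minus fat body), -1.35 (brain minus glia) and 1.19 (fat body minus glia), at H15-mid to 2.70, 1.57 and -0.82 in the same order, and at bi to 1.01 for fat body minus glia. With quantile normalization they moved to -1.62 and -1.72 for brain minus fat body and brain minus glia at Doc, and to 2.90, 0.30 and -2.09 at H15-mid. Over fragments scored in all 3 profiles fat body minus glia at Doc was 0.19. At bi brain minus fat body reversed to -0.90 as deposited and -0.80 quantile normalized, and brain minus glia to -0.083 and -0.97. No difference reversed at Doc or H15-mid under the 5 alternatives over fragments. The number of bins over 2 apart, recounted after the values were seen, moved at H15-mid to 2 (as deposited) and 3 (fragments scored in all 3 profiles) for glia over fat body and to 4 (quantile normalized) for brain over glia. At bi it moved to 0 (as deposited) and 1 (quantile normalized) for brain over fat body and to 5 (as deposited) for fat body over brain. Shares over all bins were not recomputed for these recounts. Shifts between the scales follow from their construction; the cause of the others was not tested.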
